A study of Homo sapiens with 12 samples.

Results

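The genes described here are 45 interferon-stimulated genes outside the OAS, IFIT and IFITM families, chosen by name from a list and found by gene symbol in a table of 58735 genes. All 45 were found. A filter on low counts kept 19342 genes for testing, 44 of the 45 among them, and CXCL11 was not tested. The choice by name used no measured value, although the list was drawn up with earlier results of these data known. Poly-A RNA of 12 libraries was measured, from 2 human hepatocellular carcinoma lines in 3 cultures, with 2 libraries labelled as replicates in each of the 6 groups. Huh7 and HLF are both labelled wild-type. In Inject-Embed, cells were injected into the middle of a Matrigel layer, at 4000 Huh7 or 2000 HLF cells per well. In Mix-Embed, cells were mixed with Matrigel and laid over a set gel, at 20000 Huh7 or 10000 HLF cells per well. Both of these 3D cultures were harvested at day 6 to day 8, and the flat 2D cultures at day 2, when about 90% confluent. All groups grew in DMEM with 10% serum. The culture, the seeding number and the time in culture therefore differ together, and their parts cannot be told apart. The labels name no interferon and no virus in any group.

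Interferons are secreted proteins that bind receptors on the cell surface and activate the kinases JAK1 and TYK2. Their activity leads to the assembly of the complex ISGF3, which holds STAT2 and IRF9, and this complex binds a DNA element called the interferon-stimulated response element upstream of its target genes. The products of the targets block viral entry, replication, translation or release, tag proteins with the ubiquitin-like ISG15, sense foreign RNA, and in some cases turn the signal down. Hepatocytes respond to type I interferons through IFNAR1 and IFNAR2, and to type III interferons through IFNLR1 and IL10RB.

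The promoters of the listed genes were searched for GAAANNGAA, the core of the response element, on both strands. The 8 windows shown all hold the motif, and their genes recur in the comparisons described below. Other genes that recur there, such as UBE2L6, HELZ2 and XAF1, did not hold it in any window. RefSeq windows from 250 bases before to 50 bases after a transcription start (GRCh38.p14) were matched by symbol for 38 of the 45 genes. At least 1 window of 24 of these 38 genes held the motif (63.2%), against 9.86% of 27305 genes in the same RefSeq table. The sequences read 5′ to 3′ along the gene's own strand, and capitals mark the motif, or its reverse complement, with overlapping copies run together.
ISG15, chr1:1013247-1013546, plus strand: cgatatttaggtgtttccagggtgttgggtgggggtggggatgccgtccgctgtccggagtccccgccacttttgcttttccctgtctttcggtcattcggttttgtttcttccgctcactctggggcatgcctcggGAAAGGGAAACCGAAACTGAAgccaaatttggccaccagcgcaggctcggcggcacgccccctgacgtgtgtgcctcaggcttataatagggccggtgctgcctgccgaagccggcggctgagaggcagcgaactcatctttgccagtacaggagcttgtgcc
IFI6, chr1:27672143-27672442, minus strand: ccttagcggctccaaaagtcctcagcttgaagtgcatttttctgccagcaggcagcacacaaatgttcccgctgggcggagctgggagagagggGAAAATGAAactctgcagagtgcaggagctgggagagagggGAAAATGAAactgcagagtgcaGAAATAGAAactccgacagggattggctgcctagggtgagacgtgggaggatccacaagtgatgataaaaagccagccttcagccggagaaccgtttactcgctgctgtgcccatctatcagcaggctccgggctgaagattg
IFI44L, chr1:78620198-78620497, plus strand: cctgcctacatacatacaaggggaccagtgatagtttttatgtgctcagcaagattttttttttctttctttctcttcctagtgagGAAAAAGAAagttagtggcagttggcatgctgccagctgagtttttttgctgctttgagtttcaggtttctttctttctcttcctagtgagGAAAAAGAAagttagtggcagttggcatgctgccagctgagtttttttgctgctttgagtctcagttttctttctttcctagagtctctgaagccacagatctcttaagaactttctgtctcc
BST2, chr19:17405581-17405880, minus strand: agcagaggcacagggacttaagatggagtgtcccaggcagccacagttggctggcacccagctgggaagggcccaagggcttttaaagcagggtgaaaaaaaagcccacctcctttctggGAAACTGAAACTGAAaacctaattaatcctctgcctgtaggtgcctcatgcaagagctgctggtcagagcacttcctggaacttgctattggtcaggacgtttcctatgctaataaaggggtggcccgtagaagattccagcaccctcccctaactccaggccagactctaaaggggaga
IFI27, chr14:94110486-94110785, plus strand: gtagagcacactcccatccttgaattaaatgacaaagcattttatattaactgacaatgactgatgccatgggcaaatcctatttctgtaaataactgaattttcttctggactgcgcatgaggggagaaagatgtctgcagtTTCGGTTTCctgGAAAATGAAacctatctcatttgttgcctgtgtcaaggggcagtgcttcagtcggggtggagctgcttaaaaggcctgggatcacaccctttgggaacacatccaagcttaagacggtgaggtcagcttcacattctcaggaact
HERC5, chr4:88456869-88457168, plus strand: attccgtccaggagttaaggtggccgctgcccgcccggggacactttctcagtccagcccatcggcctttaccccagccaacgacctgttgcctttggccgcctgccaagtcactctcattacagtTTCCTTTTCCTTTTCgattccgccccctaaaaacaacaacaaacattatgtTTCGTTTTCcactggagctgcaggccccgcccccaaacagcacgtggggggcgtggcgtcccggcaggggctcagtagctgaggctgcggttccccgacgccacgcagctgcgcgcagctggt
RSAD2, chr2:6865635-6865934, plus strand: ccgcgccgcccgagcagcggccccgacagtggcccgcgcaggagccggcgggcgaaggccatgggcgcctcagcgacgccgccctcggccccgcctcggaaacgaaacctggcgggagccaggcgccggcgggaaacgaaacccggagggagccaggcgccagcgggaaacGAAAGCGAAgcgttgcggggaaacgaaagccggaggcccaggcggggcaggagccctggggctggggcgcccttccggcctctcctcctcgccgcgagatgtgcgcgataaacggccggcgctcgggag
DTX3L, chr3:122564088-122564387, plus strand: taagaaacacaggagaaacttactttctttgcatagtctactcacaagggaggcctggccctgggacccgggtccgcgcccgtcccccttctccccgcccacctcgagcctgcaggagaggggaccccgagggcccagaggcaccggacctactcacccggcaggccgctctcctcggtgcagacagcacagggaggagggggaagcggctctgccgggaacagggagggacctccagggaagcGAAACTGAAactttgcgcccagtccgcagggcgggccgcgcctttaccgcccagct
In the windows of ISG15 and BST2 the copies overlapped, so that 3 and 2 copies formed 1 run in each. The IFI6 window held 3 separate copies, and the IFI44L window held 2. The window of HERC5 held 3 copies on the strand opposite to the gene, 2 of them overlapping, and that of IFI27 held 1 copy on each strand. The single copy in the DTX3L window, at chr3:122564332-122564340, also lay in a window of PARP9, the gene on the opposite strand. A copy at chr2:6865806-6865814 likewise lay in windows of both RSAD2 and CMPK2, and these were 2 shared sites among 38 sites in all. A match is a description of the letters and does not show that a factor binds there. In HLF Mix-Embed against 2D the 24 genes with a match had a median log2 fold change of 1.61 and the 13 tested genes with a window but no match had 0.92. The ranges, 0.58 to 6.38 and 0.24 to 5.3, overlapped, and no test was made between them.

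The library totals ran from 12325877 to 16041906 counts. Levels are given below as CPM, the usual scaling of counts to a common library size, here over tested genes and after TMM, for the 2 replicates of a group in turn, so that 3 counts make 0.178 to 0.255 CPM, depending on the library. Differences are log2 fold changes ± their standard error (SE) from edgeR's quasi-likelihood test on all 12 libraries. A gene is said to rise, fall or be called where the Benjamini-Hochberg adjusted p over the 19342 genes was under 0.05. Comparisons with the same 2D or Mix-Embed libraries share those libraries and are not independent. The share of counts from mitochondrial ribosomal RNA was 0.468% to 0.597% in the 3D libraries and 0.293% to 0.315% in the 2D libraries, and its part in the results was not tested. In bulk RNA, fewer cells of a type and less RNA per cell cannot be told apart. The summed level of 10 hepatocyte markers was 37400 to 48700 CPM in the Huh7 libraries and 32.4 to 169 CPM in the HLF libraries, where 4 to 7 of the 10 were at 0 counts in a library. In HLF, ALB, APOA1, APOB, TF, TTR and HNF4A had at most 3 counts in any group. The fibrinogen gene FGB made up most of the HLF sum, with 829 counts in Inject-Embed, 1388 in Mix-Embed and 5324 in 2D. AFP had 162, 261 and 18 counts and SERPINA1 had 74, 140 and 33 in the same order. Of 8 immune cell markers, PTPRC, CD3E, LILRA4 and CLEC4C were at 0 counts in every HLF library. The sum of the 8 was nevertheless 4.01 to 5.12 CPM in HLF Inject-Embed, 7.01 to 8.34 CPM in HLF Mix-Embed and 3.28 to 3.65 CPM in HLF 2D, and CD14 gave 217 counts of it in Mix-Embed and 94 in 2D. The part of these markers in the results was not tested.

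In flat culture, most of the listed genes stood lower in Huh7 than in HLF. Of the 44 tested, 11 were higher and 27 lower in Huh7, shares of 25% and 61.4%, where 38.1% of all tested genes were higher and 39.2% lower. The median log2 fold change of Huh7 over HLF was -1.3, or -1.17 with 5 genes without counts in 1 of the groups set at their bound, and that of all genes was -0.02. With library totals in place of TMM, the median over all genes was -0.18 and there were 9 members higher and 29 lower, with no called gene reversed.

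IFI44, a cytosolic protein of unsettled function that gives its name to a small family, had 0 counts in every Huh7 library of every culture. Its level was 24.3 and 25.1 CPM in HLF 2D. Computed against 3 counts over the Huh7 2D group, IFI44 was 246-fold lower there, without the counting error of HLF 2D. SLFN5, a Schlafen family nuclear protein, had 0.0666 and 0.135 CPM in Huh7 2D and 33 and 32.4 CPM in HLF 2D. With 3 counts in Huh7 2D, the ratio of Huh7 to HLF for SLFN5 was 0.00307 (95% counting interval 0.000633 to 0.009). LGALS3BP, a secreted glycoprotein that binds galectins, had 2.6 and 3.64 CPM in Huh7 2D and 455 and 428 CPM in HLF 2D, a log2 fold change of -7.14 ± 0.09 (adjusted p = 2.12e-45). IFI44 and SLFN5 were at the lower limit of detection in Huh7, and LGALS3BP was far lower there, with no overlap between the lines in any of the 3.

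The guanylate-binding proteins, large GTPases best known as targets of interferon gamma, were also low in Huh7. GBP1 had 0.333 and 0.539 CPM in Huh7 2D and 11.1 and 12.3 CPM in HLF 2D (-4.72 ± 0.29, adjusted p = 5.13e-19), GBP2 had 0.133 and 0.808 CPM in Huh7 2D and 3.41 and 3.84 CPM in HLF 2D (-2.93 ± 0.44, adjusted p = 1.13e-07) and GBP3 had 0.467 and 0.135 CPM in Huh7 2D and 14.3 and 15.1 CPM in HLF 2D (-5.57 ± 0.35, adjusted p = 1.2e-18). DDX60, a helicase that promotes sensing of viral RNA, had 0.933 and 0.471 CPM in Huh7 2D and 26.3 and 28.7 CPM in HLF 2D (-5.27 ± 0.21, adjusted p = 1.78e-25). In all 4 of these genes the lines did not overlap. The genes named as lower in Huh7 were taken by size of called change, so their lack of overlap is no separate support. IFI44L, the neighbour of IFI44, had 0.0666 and 0.539 CPM in Huh7 2D and 7.87 and 10.1 CPM in HLF 2D (-4.86 ± 0.31, adjusted p = 2.89e-18), and IFI6, a small membrane protein that restricts flaviviruses, had 2.87 and 2.89 CPM in Huh7 2D and 30 and 26.9 CPM in HLF 2D (-3.3 ± 0.16, adjusted p = 9.92e-23). SP100 and SP110 are proteins of nuclear bodies, and IFI35 is a leucine zipper protein. SP100 had 3.47 and 3.5 CPM in Huh7 2D and 49.7 and 47.6 CPM in HLF 2D (-3.8 ± 0.13, adjusted p = 9.7e-29). SP110 had 3.47 and 3.9 CPM in Huh7 2D and 30.7 and 31.3 CPM in HLF 2D (-3.07 ± 0.15, adjusted p = 1.73e-22). IFI35 had 6.6 and 7.74 CPM in Huh7 2D and 55.6 and 55.4 CPM in HLF 2D (-2.95 ± 0.11, adjusted p = 3.83e-27), again with no overlap between the lines.

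The members called higher in Huh7 were 11 of 44 (25%, beside 38.1% of all genes). Among the small IFI proteins and XAF1, 1 was called higher and 5 lower. The higher was IFI27, with 83 counts in Huh7 2D and 19 in HLF 2D. LAMP3 had 75 and 8 counts in the same order. UBE2L6, the enzyme that passes ISG15 to its ligases, had 81.6 and 88.1 CPM in Huh7 2D and 53 and 47.3 CPM in HLF 2D (0.76 ± 0.07, adjusted p = 9.45e-13), and PARP9 and its partner DTX3L were higher by 0.81 ± 0.11 (adjusted p = 8.79e-09) and 0.96 ± 0.08 (adjusted p = 4.27e-15). CXCL10, a chemokine for T cells, had 36 counts in Huh7 2D and 1 in HLF 2D, a ratio of 38.6 (95% counting interval 6.5 to 1570). HERC5, the main ligase for ISG15 in human cells, was called at 0.3 ± 0.14 (adjusted p = 0.0472), and this call was lost without Huh7 2D replicate 1 (0.29, adjusted p = 0.118), Huh7 2D replicate 2 (0.3, adjusted p = 0.109), HLF 2D replicate 1 (0.33, adjusted p = 0.0954) or HLF 2D replicate 2 (0.23, adjusted p = 0.23). Per length, which allows genes to be compared, the highest mean FPKM in Huh7 2D were ADAR at 49.9, UBE2L6 at 36 and DTX3L at 11.3. In HLF 2D the highest were LGALS3BP at 128, ADAR at 48.9 and ISG15 at 37.2.

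**Figure D1:**
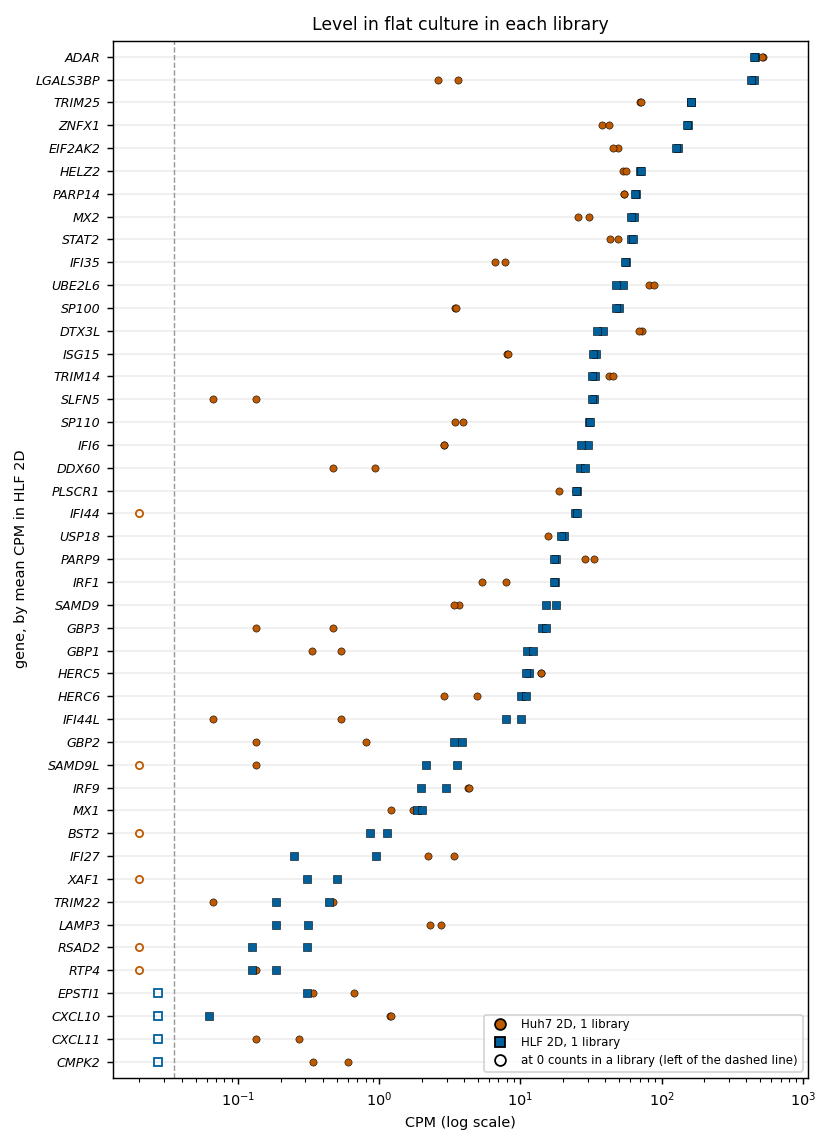
CPM of the 45 genes in each 2D library on a log scale, Huh7 as circles and HLF as squares, ordered by the mean in HLF 2D, with open symbols left of the dashed line for 0 counts in a library. Most Huh7 circles lie left of the HLF squares, ADAR lies close together in both lines at 453 to 524 CPM, and IFI44 has no counts in Huh7.

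In HLF, the listed genes rose almost as a whole in Mix-Embed. Of 44 tested, 41 were higher and 0 lower than in 2D, shares of 93.2% and 0%, where 14.4% of all genes were higher and 14.6% lower. Their median log2 fold change was 1.3, also with CMPK2 at its bound, and that of all genes was 0. At an unadjusted p under 0.05 the number lower was also 0, and DESeq2 and limma each gave 0. MX2, LAMP3 and CXCL10 were the 3 tested genes without a call. In Inject-Embed, 27 were higher and 1 lower than in 2D, shares of 61.4% and 2.27%, where 9.09% of all genes were higher and 8.86% lower, and the median was 0.6. Inject-Embed stood below Mix-Embed, with 0 members higher and 36 lower, shares of 0% and 81.8%, where 3.56% of all genes were higher and 4.71% lower, and a median of -0.7. At an unadjusted p under 0.05 the number higher was also 0, as it was with DESeq2 and limma. For 23 members (52.3%) both steps passed the test, so that 2D was lowest, Inject-Embed between and Mix-Embed highest, where 1.85% of all tested genes showed this order. The summed level of all 45 genes was 2586 and 2618 CPM in HLF Inject-Embed, 3965 and 3938 CPM in HLF Mix-Embed and 2193 and 2149 CPM in HLF 2D. With library totals in place of TMM, higher calls made up 62.4% of all calls over all genes in Mix-Embed against 2D, where TMM gave 49.8%, and the 41 members higher stayed 41. In Inject-Embed against 2D the same share was 63.3%, where TMM gave 50.6%, and 29 members were then higher and 1 lower. With limma on log2(FPKM + 0.1), 15 members were called in Inject-Embed against 2D in place of 28.

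**Figure D2:**
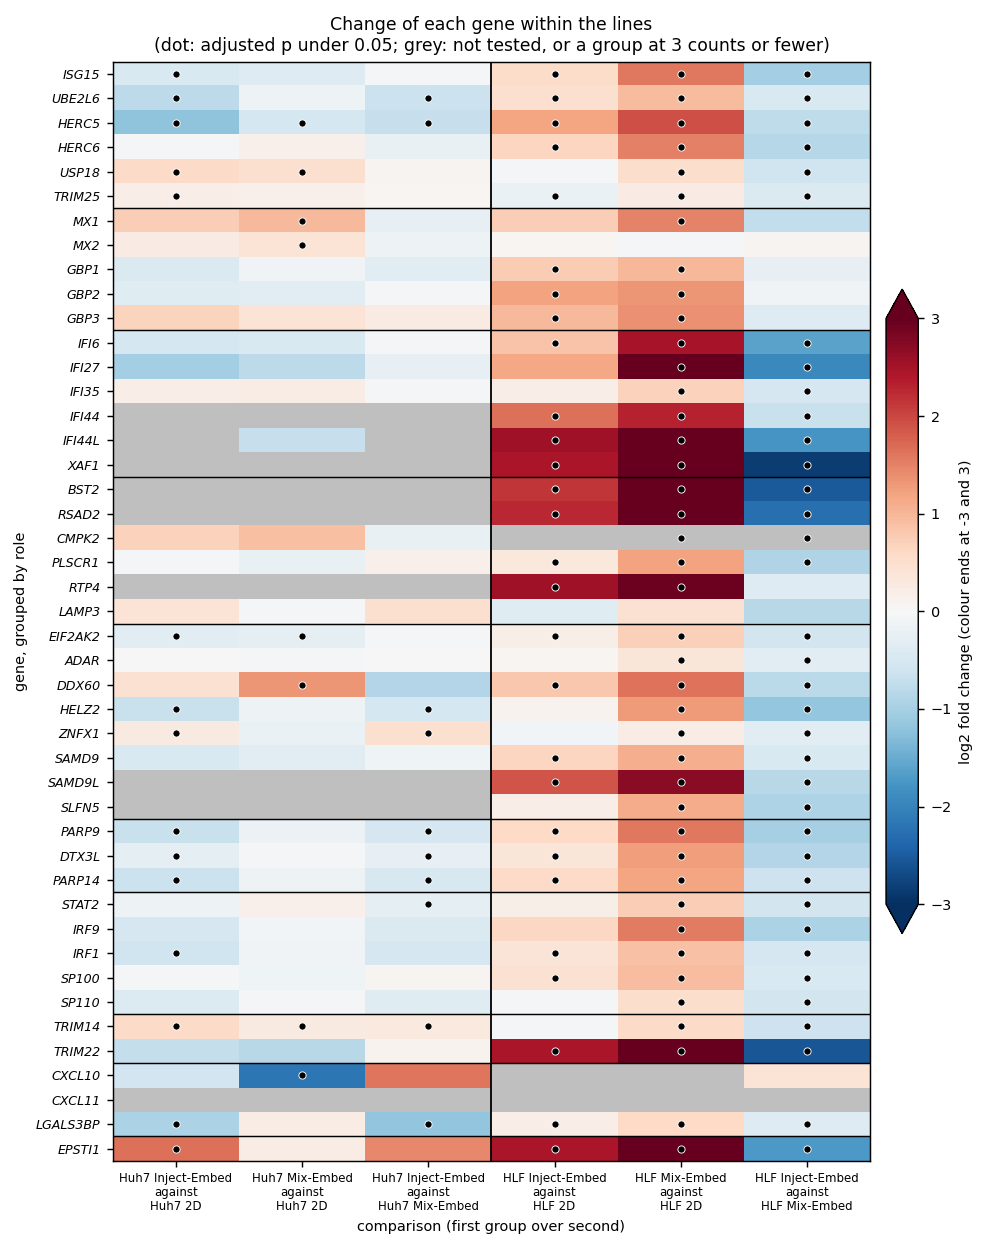
Log2 fold change of each of the 45 genes, in rows grouped by role, in the 6 comparisons within a line, in columns, with a dot for an adjusted p under 0.05 and grey where a gene was not tested or a group had 3 counts or fewer. The HLF Mix-Embed column is red in nearly every row with 41 dots, while the Huh7 columns hold 15, 8 and 10 dots of mixed colour.

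Among the 6 genes of ISG15 conjugation, all 6 rose in HLF Mix-Embed against 2D, and in Inject-Embed against 2D 4 rose and 1 fell. Beside the counts by role in HLF, 14.4% of all genes rose in Mix-Embed and 9.09% in Inject-Embed. Of all genes, 4.71% were lower in Inject-Embed than in Mix-Embed. ISG15, the ubiquitin-like protein itself, had 49.7 and 49.4 CPM in HLF Inject-Embed, 102 and 99.2 CPM in HLF Mix-Embed and 34.6 and 32.8 CPM in HLF 2D. The 3 cultures did not overlap. ISG15 differed from 2D by 0.56 ± 0.09 (adjusted p = 3.7e-06) in Inject-Embed and 1.58 ± 0.08 (adjusted p = 1.31e-19) in Mix-Embed. ISG15 in Inject-Embed against Mix-Embed was at -1.02 ± 0.08 (adjusted p = 5e-13). HERC5 had 26.7 and 24.7 CPM in HLF Inject-Embed, 46.3 and 40.6 CPM in HLF Mix-Embed and 11.5 and 11 CPM in HLF 2D, again with no overlap. HERC5 differed from 2D by 1.19 ± 0.13 (adjusted p = 1.12e-09) in Inject-Embed and 1.94 ± 0.12 (adjusted p = 6.8e-17) in Mix-Embed. HERC5 in Inject-Embed against Mix-Embed was at -0.76 ± 0.11 (adjusted p = 4.54e-06). HERC6, a neighbour of HERC5 that acts as the ISG15 ligase in mouse, had 15.3 and 17.4 CPM in HLF Inject-Embed, 28.8 and 30.8 CPM in HLF Mix-Embed and 10.1 and 10.9 CPM in HLF 2D, and the 3 cultures did not overlap. HERC6 differed from 2D by 0.64 ± 0.16 (adjusted p = 0.0027) in Inject-Embed and 1.51 ± 0.15 (adjusted p = 6.12e-11) in Mix-Embed. HERC6 in Inject-Embed against Mix-Embed was at -0.86 ± 0.14 (adjusted p = 3.04e-05), and the call in Inject-Embed against 2D was lost without HLF Inject-Embed replicate 2 (0.55, adjusted p = 0.06). UBE2L6 was called at 0.49, 0.95 and -0.46 in the same 3 comparisons. USP18, the protease that removes ISG15 and also dampens the type I receptor, rose in Mix-Embed alone among the comparisons with 2D (0.54 ± 0.12, adjusted p = 0.000383) and was at -0.05 ± 0.12 (adjusted p = 0.871) in Inject-Embed. TRIM25, a ubiquitin ligase that activates the RNA sensor RIG-I, went against its group, with 140 and 143 CPM in HLF Inject-Embed, 189 and 192 CPM in HLF Mix-Embed and 161 and 163 CPM in HLF 2D. The Inject-Embed libraries were the lowest, and TRIM25 was -0.19 ± 0.05 (adjusted p = 0.00829) against 2D, a call lost without HLF 2D replicate 2 (-0.18, adjusted p = 0.0926), HLF Inject-Embed replicate 1 (-0.17, adjusted p = 0.113) or HLF Inject-Embed replicate 2 (-0.2, adjusted p = 0.0565). In Mix-Embed it was called at 0.24 ± 0.05 (adjusted p = 0.000467).

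Of the 5 GTPases, 4 rose in HLF Mix-Embed against 2D and 3 in Inject-Embed. GBP1 had 19.3 and 20 CPM in HLF Inject-Embed, 23.8 and 23.1 CPM in HLF Mix-Embed and 11.1 and 12.3 CPM in HLF 2D, and both 3D cultures stood above 2D without overlap. GBP1 differed from 2D by 0.75 ± 0.15 (adjusted p = 0.00019) in Inject-Embed and 1 ± 0.15 (adjusted p = 5.43e-07) in Mix-Embed. GBP1 in Inject-Embed against Mix-Embed was at -0.25 ± 0.14 (adjusted p = 0.323). GBP2 had 8.95 and 7.78 CPM in HLF Inject-Embed, 11.9 and 6.29 CPM in HLF Mix-Embed and 3.41 and 3.84 CPM in HLF 2D, with replicates far apart in Mix-Embed. GBP2 was called at 1.2 ± 0.27 (adjusted p = 0.00101) in Inject-Embed against 2D and 1.31 ± 0.27 (adjusted p = 0.000168) in Mix-Embed against 2D, where the call was lost without HLF Mix-Embed replicate 1 (0.81, adjusted p = 0.0662). GBP3 had 30.5 and 26.9 CPM in HLF Inject-Embed, 39.2 and 36.2 CPM in HLF Mix-Embed and 14.3 and 15.1 CPM in HLF 2D, called at 0.97 ± 0.16 (adjusted p = 9.86e-06) in Inject-Embed and 1.36 ± 0.16 (adjusted p = 2.39e-09) in Mix-Embed against 2D, and DESeq2 gave adjusted p = 0.639 and 0.396 for these 2 results. None of the 3 was called between the 3D cultures. MX1, a dynamin-like GTPase that traps viral nucleocapsids, was low, with 4.02 and 2.51 CPM in HLF Inject-Embed, 6.01 and 4.99 CPM in HLF Mix-Embed and 1.86 and 2.02 CPM in HLF 2D, and was called in Mix-Embed against 2D (1.5 ± 0.29, adjusted p = 6.95e-05). Without HLF Inject-Embed replicate 2 it was also called in Inject-Embed against 2D (1.06, adjusted p = 0.0383). Its relative MX2, which blocks HIV at the nuclear pore, was at 63 and 66.6 CPM in HLF Inject-Embed, 61.7 and 60.7 CPM in HLF Mix-Embed and 63.4 and 61.2 CPM in HLF 2D, the groups overlapped, and its differences from 2D were 0.06 ± 0.08 (adjusted p = 0.724) in Inject-Embed and -0.03 ± 0.08 (adjusted p = 0.877) in Mix-Embed.

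The small IFI proteins and XAF1 numbered 6 genes, and all 6 rose in HLF Mix-Embed against 2D and stood lower in Inject-Embed than in Mix-Embed. IFI44L had 52.6 and 53.1 CPM in HLF Inject-Embed, 178 and 183 CPM in HLF Mix-Embed and 7.87 and 10.1 CPM in HLF 2D. The cultures were far apart and did not overlap. IFI44L differed from 2D by 2.55 ± 0.12 (adjusted p = 8.53e-22) in Inject-Embed and 4.32 ± 0.11 (adjusted p = 1.64e-31) in Mix-Embed. IFI44L in Inject-Embed against Mix-Embed was at -1.77 ± 0.09 (adjusted p = 5.74e-20). IFI6 had 49.8 and 54.1 CPM in HLF Inject-Embed, 155 and 162 CPM in HLF Mix-Embed and 30 and 26.9 CPM in HLF 2D, and the 3 cultures did not overlap. IFI6 differed from 2D by 0.87 ± 0.1 (adjusted p = 3.16e-09) in Inject-Embed and 2.48 ± 0.09 (adjusted p = 4.68e-25) in Mix-Embed. IFI6 in Inject-Embed against Mix-Embed was at -1.61 ± 0.09 (adjusted p = 2.2e-18). IFI44 had 75.6 and 79 CPM in HLF Inject-Embed, 125 and 119 CPM in HLF Mix-Embed and 24.3 and 25.1 CPM in HLF 2D, and here Inject-Embed was nearer to Mix-Embed than to 2D. IFI44 differed from 2D by 1.64 ± 0.09 (adjusted p = 2.33e-18) in Inject-Embed and 2.3 ± 0.09 (adjusted p = 6.77e-24) in Mix-Embed. IFI44 in Inject-Embed against Mix-Embed was at -0.66 ± 0.08 (adjusted p = 4.31e-08). XAF1, which promotes apoptosis by binding the inhibitor XIAP, was near the floor in 2D, with 1.95 and 2.57 CPM in HLF Inject-Embed, 17.3 and 15.5 CPM in HLF Mix-Embed and 0.31 and 0.504 CPM in HLF 2D. XAF1 differed from 2D by 2.45 ± 0.42 (adjusted p = 2.26e-05) in Inject-Embed and 5.3 ± 0.33 (adjusted p = 9e-17) in Mix-Embed. XAF1 in Inject-Embed against Mix-Embed was at -2.85 ± 0.25 (adjusted p = 2.54e-11). IFI27, a small mitochondrial protein, had 1.95 and 0.753 CPM in HLF Inject-Embed, 5.33 and 5.05 CPM in HLF Mix-Embed and 0.248 and 0.945 CPM in HLF 2D, with Inject-Embed and 2D overlapping. IFI27 differed from 2D by 1.17 ± 0.5 (adjusted p = 0.106) in Inject-Embed and 3.11 ± 0.42 (adjusted p = 8.55e-08) in Mix-Embed. IFI27 in Inject-Embed against Mix-Embed was at -1.94 ± 0.37 (adjusted p = 0.000229), and the difference in Inject-Embed against 2D was called without HLF 2D replicate 2 (2.4, adjusted p = 0.021) or HLF Inject-Embed replicate 2 (1.7, adjusted p = 0.021). IFI35 was called at 0.69 ± 0.08 (adjusted p = 1.49e-09) in Mix-Embed and not in Inject-Embed (0.19 ± 0.08, adjusted p = 0.0916). Per length, mean FPKM in HLF Mix-Embed was highest for LGALS3BP at 203, IFI6 at 198 and ISG15 at 116.

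**Figure D3:**
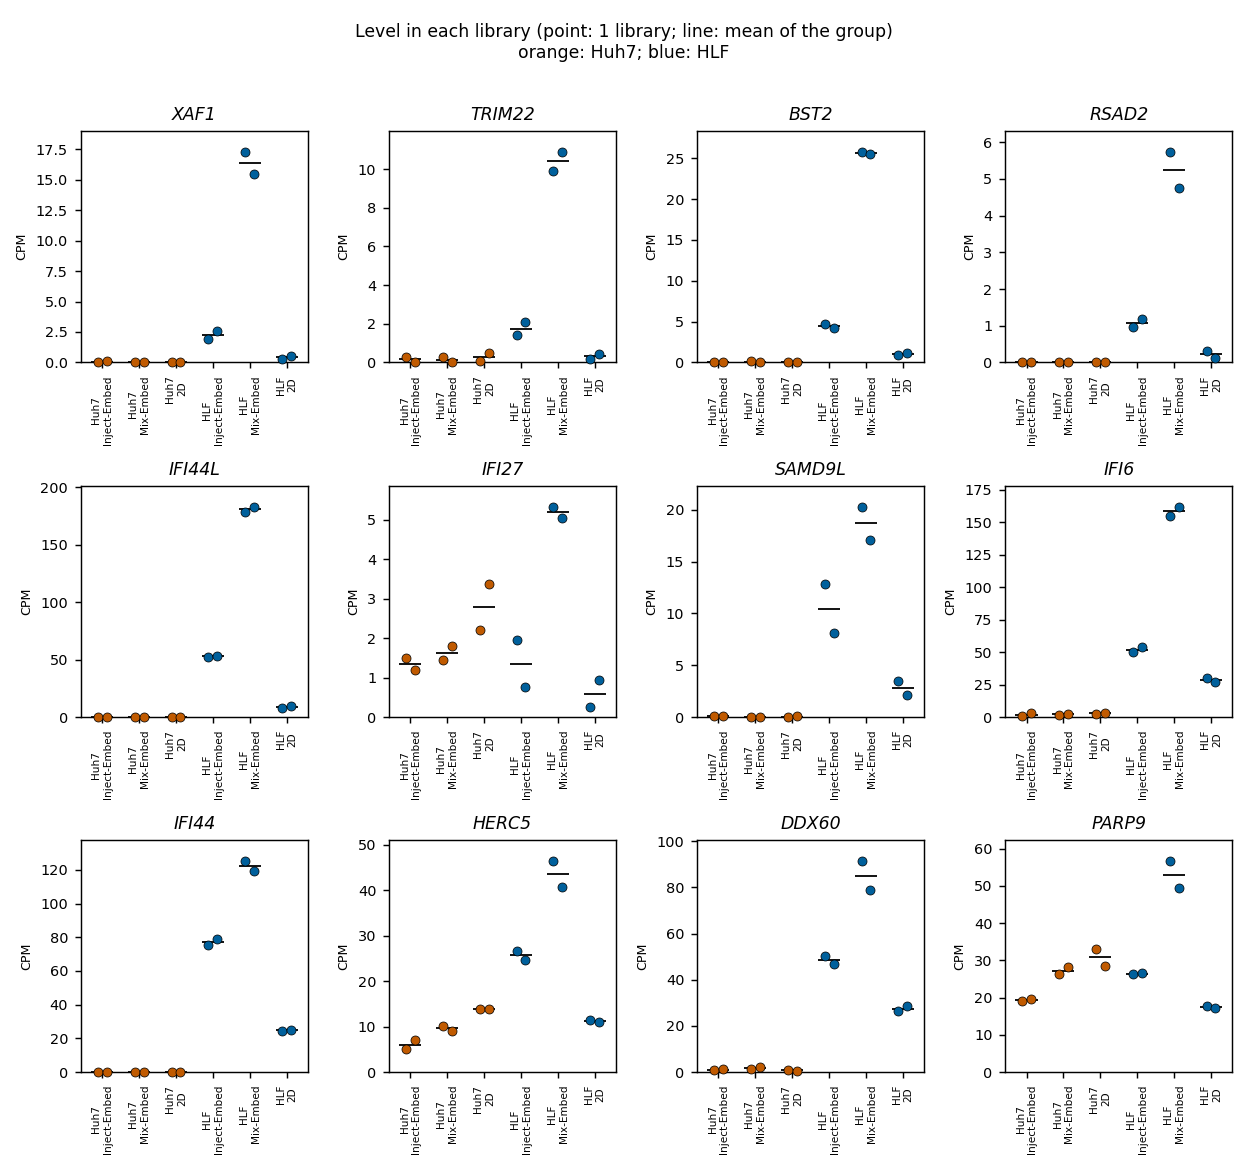
CPM of 12 genes in each of the 12 libraries (points, on a linear axis from 0; the bar is the mean of a group), Huh7 in orange and HLF in blue, with Inject-Embed, Mix-Embed and 2D from left to right in each line. The 12 are those with the largest called change in HLF Mix-Embed against 2D among genes that reached 3 CPM in the higher group, and in each of them both HLF Mix-Embed libraries are the highest of the 12.

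Of the 6 genes acting on membranes and nucleotides, 5 rose in HLF Mix-Embed against 2D and 4 in Inject-Embed. BST2 (tetherin) holds budding virus particles at the cell surface and had 4.73 and 4.2 CPM in HLF Inject-Embed, 25.8 and 25.5 CPM in HLF Mix-Embed and 0.867 and 1.13 CPM in HLF 2D. All 3 cultures were apart. BST2 differed from 2D by 2.15 ± 0.29 (adjusted p = 2.69e-07) in Inject-Embed and 4.67 ± 0.24 (adjusted p = 1.06e-19) in Mix-Embed. BST2 in Inject-Embed against Mix-Embed was at -2.52 ± 0.19 (adjusted p = 1.98e-13). RSAD2 (viperin) makes a nucleotide that ends viral RNA chains and had 0.973 and 1.19 CPM in HLF Inject-Embed, 5.74 and 4.75 CPM in HLF Mix-Embed and 0.31 and 0.126 CPM in HLF 2D, from 7 counts in 2D over both libraries. RSAD2 differed from 2D by 2.27 ± 0.63 (adjusted p = 0.0083) in Inject-Embed and 4.53 ± 0.53 (adjusted p = 5.39e-09) in Mix-Embed. RSAD2 in Inject-Embed against Mix-Embed was at -2.26 ± 0.41 (adjusted p = 0.000161), and the call in Inject-Embed against 2D was lost without HLF 2D replicate 2 (1.78, adjusted p = 0.121) or HLF Inject-Embed replicate 2 (2.12, adjusted p = 0.0646). CMPK2, a mitochondrial nucleotide kinase read from the opposite strand, had 2 counts in HLF Inject-Embed, 22 in HLF Mix-Embed and 0 in HLF 2D. Computed against 3 counts over the 2D group, Mix-Embed was 7.46-fold higher, without the counting error of the 22. CMPK2 in Inject-Embed over Mix-Embed was a ratio of 0.0912 (95% counting interval 0.0104 to 0.371). RSAD2 and CMPK2 overlap by 829 bases, with 205 and 81 counts over the 12 libraries, and reads in the overlap cannot be told apart without the strand. PLSCR1, a phospholipid scramblase, had 30.7 and 31.4 CPM in HLF Inject-Embed, 55.8 and 59.6 CPM in HLF Mix-Embed and 25.4 and 24.7 CPM in HLF 2D and was called at 1.2 ± 0.11 (adjusted p = 1.62e-12) in Mix-Embed against 2D. Its call in Inject-Embed against 2D, 0.31 ± 0.11 (adjusted p = 0.0475), was lost without HLF 2D replicate 1 (0.33, adjusted p = 0.141), HLF 2D replicate 2 (0.29, adjusted p = 0.207), HLF Inject-Embed replicate 1 (0.33, adjusted p = 0.121) or HLF Inject-Embed replicate 2 (0.3, adjusted p = 0.18). LAMP3, a lysosomal protein of dendritic cells, had 6 counts in HLF Inject-Embed, 11 in HLF Mix-Embed and 8 in HLF 2D, and no call. RTP4, a chaperone of receptors, was at most 1.84 CPM and was called in both 3D cultures against 2D, and in Mix-Embed the call was lost without HLF 2D replicate 2 (2.72, adjusted p = 0.0611) or HLF Mix-Embed replicate 1 (2.15, adjusted p = 0.155). In Inject-Embed the RTP4 call was lost without HLF 2D replicate 1 (2.84, adjusted p = 0.116), HLF 2D replicate 2 (2.32, adjusted p = 0.184), HLF Inject-Embed replicate 1 (2.43, adjusted p = 0.132) or HLF Inject-Embed replicate 2 (2.67, adjusted p = 0.0789).

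The 8 RNA-binding and helicase genes all rose in HLF Mix-Embed against 2D, and 4 of them rose in Inject-Embed. DDX60 had 50.1 and 47 CPM in HLF Inject-Embed, 91.3 and 79 CPM in HLF Mix-Embed and 26.3 and 28.7 CPM in HLF 2D, and the 3 cultures did not overlap. DDX60 differed from 2D by 0.82 ± 0.11 (adjusted p = 6.89e-08) in Inject-Embed and 1.63 ± 0.1 (adjusted p = 4.58e-17) in Mix-Embed. DDX60 in Inject-Embed against Mix-Embed was at -0.81 ± 0.1 (adjusted p = 5.15e-08). SAMD9L, an antiviral relative of SAMD9 that lies beside it, had 12.8 and 8.15 CPM in HLF Inject-Embed, 20.3 and 17.1 CPM in HLF Mix-Embed and 3.53 and 2.14 CPM in HLF 2D, and the replicates lay apart but the cultures did not overlap. SAMD9L differed from 2D by 1.88 ± 0.24 (adjusted p = 5.67e-08) in Inject-Embed and 2.71 ± 0.23 (adjusted p = 5.02e-13) in Mix-Embed. SAMD9L in Inject-Embed against Mix-Embed was at -0.84 ± 0.19 (adjusted p = 0.00273), and the call between the 3D cultures was lost without HLF Inject-Embed replicate 2 (-0.55, adjusted p = 0.191) or HLF Mix-Embed replicate 1 (-0.72, adjusted p = 0.0836). SAMD9 had 25.9 and 25.5 CPM in HLF Inject-Embed, 38.1 and 32.5 CPM in HLF Mix-Embed and 15.2 and 18 CPM in HLF 2D, and the 3 cultures did not overlap. SAMD9 differed from 2D by 0.63 ± 0.13 (adjusted p = 3e-04) in Inject-Embed and 1.09 ± 0.13 (adjusted p = 3.51e-09) in Mix-Embed. SAMD9 in Inject-Embed against Mix-Embed was at -0.45 ± 0.12 (adjusted p = 0.0131), and the call between the 3D cultures was lost without HLF Inject-Embed replicate 1 (-0.47, adjusted p = 0.0837), HLF Inject-Embed replicate 2 (-0.45, adjusted p = 0.108) or HLF Mix-Embed replicate 1 (-0.35, adjusted p = 0.215). HELZ2, a helicase and nuclear receptor coactivator, rose in Mix-Embed and was not called in Inject-Embed, with 77.9 and 76.1 CPM in HLF Inject-Embed, 165 and 182 CPM in HLF Mix-Embed and 70.4 and 71.6 CPM in HLF 2D, and 2D lay just below Inject-Embed. HELZ2 differed from 2D by 0.12 ± 0.07 (adjusted p = 0.256) in Inject-Embed and 1.29 ± 0.06 (adjusted p = 8.34e-21) in Mix-Embed. HELZ2 in Inject-Embed against Mix-Embed was at -1.17 ± 0.06 (adjusted p = 1.81e-18). SLFN5 showed the same order of calls, with 36.7 and 38.3 CPM in HLF Inject-Embed, 73.9 and 68.6 CPM in HLF Mix-Embed and 33 and 32.4 CPM in HLF 2D, and 2D again lay just below Inject-Embed. SLFN5 differed from 2D by 0.2 ± 0.11 (adjusted p = 0.216) in Inject-Embed and 1.12 ± 0.1 (adjusted p = 2.96e-12) in Mix-Embed. SLFN5 in Inject-Embed against Mix-Embed was at -0.93 ± 0.1 (adjusted p = 3.81e-09). EIF2AK2, the kinase PKR that stops translation on double-stranded RNA, was called at 0.71 ± 0.06 (adjusted p = 9.91e-14) in Mix-Embed, and its call of 0.17 ± 0.06 (adjusted p = 0.0423) in Inject-Embed was lost without HLF 2D replicate 1 (0.19, adjusted p = 0.103), HLF 2D replicate 2 (0.14, adjusted p = 0.248), HLF Inject-Embed replicate 1 (0.17, adjusted p = 0.169) or HLF Inject-Embed replicate 2 (0.17, adjusted p = 0.151). ADAR, the enzyme that edits double-stranded RNA, moved least among the called genes of the group together with ZNFX1, by 0.36 ± 0.04 (adjusted p = 2.27e-09) and 0.22 ± 0.06 (adjusted p = 0.00239) in Mix-Embed.

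PARP9, DTX3L and PARP14 act in ADP-ribosylation of proteins, and all 3 rose at both steps in HLF. PARP9, which forms a complex with the ubiquitin ligase DTX3L, had 26.3 and 26.5 CPM in HLF Inject-Embed, 56.6 and 49.4 CPM in HLF Mix-Embed and 17.8 and 17.3 CPM in HLF 2D, and the 3 cultures did not overlap. PARP9 differed from 2D by 0.59 ± 0.11 (adjusted p = 7.56e-05) in Inject-Embed and 1.59 ± 0.1 (adjusted p = 1.19e-16) in Mix-Embed. PARP9 in Inject-Embed against Mix-Embed was at -1.01 ± 0.1 (adjusted p = 2.68e-10). DTX3L had 47.3 and 47 CPM in HLF Inject-Embed, 91.7 and 82.7 CPM in HLF Mix-Embed and 38.2 and 34.8 CPM in HLF 2D, with no overlap. DTX3L differed from 2D by 0.37 ± 0.08 (adjusted p = 0.000474) in Inject-Embed and 1.26 ± 0.07 (adjusted p = 6.94e-18) in Mix-Embed. DTX3L in Inject-Embed against Mix-Embed was at -0.88 ± 0.07 (adjusted p = 1.82e-12). PARP14 had 99.2 and 95.8 CPM in HLF Inject-Embed, 149 and 149 CPM in HLF Mix-Embed and 65.6 and 65.3 CPM in HLF 2D, and the 3 cultures did not overlap. PARP14 differed from 2D by 0.58 ± 0.07 (adjusted p = 8.98e-09) in Inject-Embed and 1.19 ± 0.07 (adjusted p = 8.11e-19) in Mix-Embed. PARP14 in Inject-Embed against Mix-Embed was at -0.61 ± 0.06 (adjusted p = 1.79e-09). The genes PARP9 (chr3:122527924-122564577) and DTX3L (chr3:122564238-122575203) overlap by 339 bases on opposite strands in the deposited annotation, and the strand setting of the counting is not given.

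Of the 5 transcription and nuclear body genes, all 5 rose in HLF Mix-Embed against 2D and 2 in Inject-Embed. STAT2, the ISGF3 subunit that is specific to type I and type III signals, had 69.1 and 70.1 CPM in HLF Inject-Embed, 104 and 101 CPM in HLF Mix-Embed and 60.5 and 62.4 CPM in HLF 2D, and 2D was lowest without overlap. STAT2 differed from 2D by 0.18 ± 0.07 (adjusted p = 0.0713) in Inject-Embed and 0.73 ± 0.07 (adjusted p = 7.72e-12) in Mix-Embed. STAT2 in Inject-Embed against Mix-Embed was at -0.55 ± 0.07 (adjusted p = 7.38e-08). IRF9, the DNA-binding subunit of ISGF3, had 3.5 and 4.08 CPM in HLF Inject-Embed, 7.93 and 6.77 CPM in HLF Mix-Embed and 1.98 and 2.96 CPM in HLF 2D, with the Mix-Embed libraries highest. IRF9 differed from 2D by 0.62 ± 0.26 (adjusted p = 0.103) in Inject-Embed and 1.57 ± 0.24 (adjusted p = 1.47e-06) in Mix-Embed. IRF9 in Inject-Embed against Mix-Embed was at -0.95 ± 0.23 (adjusted p = 0.00441), and the call between the 3D cultures was lost without HLF Inject-Embed replicate 1 (-0.85, adjusted p = 0.0738) or HLF Mix-Embed replicate 1 (-0.84, adjusted p = 0.0643). IRF1, an activator that responds most to interferon gamma, was called at 0.88 ± 0.13 (adjusted p = 4.2e-07) in Mix-Embed and 0.38 ± 0.13 (adjusted p = 0.0355) in Inject-Embed, where the call was lost without HLF 2D replicate 1 (0.4, adjusted p = 0.131), HLF 2D replicate 2 (0.37, adjusted p = 0.168), HLF Inject-Embed replicate 1 (0.46, adjusted p = 0.0555) or HLF Inject-Embed replicate 2 (0.32, adjusted p = 0.25). SP100 was called at 0.45 in Inject-Embed and 0.92 in Mix-Embed, and SP110 at 0.52 in Mix-Embed only.

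TRIM22, a ubiquitin ligase that restricts hepatitis B virus and influenza virus, had 1.43 and 2.07 CPM in HLF Inject-Embed, 9.91 and 10.9 CPM in HLF Mix-Embed and 0.186 and 0.441 CPM in HLF 2D, and the 3 cultures did not overlap. TRIM22 differed from 2D by 2.46 ± 0.56 (adjusted p = 0.000943) in Inject-Embed and 5.02 ± 0.45 (adjusted p = 2.32e-12) in Mix-Embed. TRIM22 in Inject-Embed against Mix-Embed was at -2.56 ± 0.34 (adjusted p = 4.5e-07). TRIM5, which overlaps TRIM22 on the opposite strand, had 6565 counts over the 12 libraries and TRIM22 had 409. Reads in the overlap of the 2 genes cannot be told apart without the strand. TRIM14, an adaptor of antiviral signalling at mitochondria, was called at 0.58 ± 0.09 (adjusted p = 1.18e-06) in Mix-Embed and stood at -0.05 ± 0.09 (adjusted p = 0.819) in Inject-Embed. EPSTI1, named for an interaction of epithelium and stroma, was at most 3.09 CPM in HLF, called at 2.46 ± 0.74 (adjusted p = 0.0151) in Inject-Embed and 4.18 ± 0.63 (adjusted p = 8.82e-07) in Mix-Embed, and the first of these was lost without HLF 2D replicate 2 (1.51, adjusted p = 0.234) or HLF Inject-Embed replicate 1 (1.8, adjusted p = 0.248).

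Among the secreted products, LGALS3BP rose and the chemokines had few counts. LGALS3BP had 504 and 517 CPM in HLF Inject-Embed, 657 and 686 CPM in HLF Mix-Embed and 455 and 428 CPM in HLF 2D, with no overlap. It was called at 0.21 ± 0.05 (adjusted p = 0.00123) in Inject-Embed against 2D, 0.6 ± 0.05 (adjusted p = 5.97e-14) in Mix-Embed against 2D and -0.4 ± 0.05 (adjusted p = 4.71e-08) in Inject-Embed against Mix-Embed. The first of these calls was lost without HLF 2D replicate 2 (0.17, adjusted p = 0.0632). CXCL10 had 8 counts in HLF Inject-Embed, 6 in HLF Mix-Embed and 1 in HLF 2D, and CXCL11 had 1, 4 and 0 counts in the same order, too few to test for CXCL11. For CXCL10 the ratio of Inject-Embed to 2D was 8.17 (95% counting interval 1.09 to 362), and that of Mix-Embed to 2D was 6.1 (0.74 to 281). These intervals cover counting error only, and edgeR called neither difference.

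In Huh7 the same genes moved in both directions. In Inject-Embed against 2D, 5 of 44 rose and 10 fell, shares of 11.4% and 22.7%, where 13.2% of all genes rose and 16.7% fell, and the median log2 fold change was -0.1. Without 6 genes at 3 counts or fewer in both groups the median was -0.31. The shares of 44 include these 6, which had almost no counts to compare. The median absolute log2 fold change was 0.52 for the members and 0.28 for all genes in Inject-Embed against 2D, and 0.22 and 0.23 in Mix-Embed against 2D. In Mix-Embed against 2D, 5 rose and 3 fell, shares of 11.4% and 6.82%, near the 11.2% and 10.6% of all genes, with a median of -0.08. In Inject-Embed against Mix-Embed, 2 were higher and 8 lower, shares of 4.55% and 18.2%, where 9.55% of all genes were higher and 13.4% lower, with a median of -0.1. With library totals in place of TMM, higher calls made up 52.9% of all calls over all genes in this comparison, where TMM gave 41.7%, and 2 members were then higher and 7 lower. The summed level of the 45 genes was 1128 and 1118 CPM in Huh7 Inject-Embed, 1200 and 1165 CPM in Huh7 Mix-Embed and 1204 and 1200 CPM in Huh7 2D.

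Of the 6 ISG15 conjugation genes, 3 fell and 2 rose in Huh7 Inject-Embed against 2D (50% and 33.3%, beside 16.7% and 13.2% of all genes). HERC5 had 5.07 and 6.97 CPM in Huh7 Inject-Embed, 10.2 and 9.1 CPM in Huh7 Mix-Embed and 13.9 and 13.9 CPM in Huh7 2D, with no overlap and 2D highest. HERC5 differed from 2D by -1.22 ± 0.16 (adjusted p = 6.74e-08) in Inject-Embed and -0.53 ± 0.15 (adjusted p = 0.0066) in Mix-Embed. HERC5 in Inject-Embed against Mix-Embed was at -0.69 ± 0.17 (adjusted p = 0.0023). The HERC5 call in Mix-Embed against 2D was lost without Huh7 Mix-Embed replicate 2 (-0.46, adjusted p = 0.0919), and that between the 3D cultures without Huh7 Inject-Embed replicate 1 (-0.47, adjusted p = 0.132). UBE2L6 had 46.9 and 51.3 CPM in Huh7 Inject-Embed, 76.5 and 76.7 CPM in Huh7 Mix-Embed and 81.6 and 88.1 CPM in Huh7 2D, with no overlap and Inject-Embed far the lowest. UBE2L6 differed from 2D by -0.79 ± 0.07 (adjusted p = 1.32e-11) in Inject-Embed and -0.15 ± 0.07 (adjusted p = 0.14) in Mix-Embed. UBE2L6 in Inject-Embed against Mix-Embed was at -0.64 ± 0.08 (adjusted p = 7.35e-09). ISG15 had 5.45 and 6.55 CPM in Huh7 Inject-Embed, 6.13 and 6.23 CPM in Huh7 Mix-Embed and 8.06 and 8.21 CPM in Huh7 2D, and 2D was above both 3D cultures. In Inject-Embed against 2D it was called at -0.45 ± 0.16 (adjusted p = 0.0258), and the call was lost without Huh7 2D replicate 1 (-0.46, adjusted p = 0.08), Huh7 2D replicate 2 (-0.43, adjusted p = 0.0949) or Huh7 Inject-Embed replicate 1 (-0.31, adjusted p = 0.297). USP18 and TRIM25 rose in Huh7 Inject-Embed. USP18 had 25 and 27.7 CPM in Huh7 Inject-Embed, 25.8 and 23.5 CPM in Huh7 Mix-Embed and 15.6 and 19.8 CPM in Huh7 2D, and 2D was lowest while the 3D cultures overlapped. USP18 differed from 2D by 0.57 ± 0.13 (adjusted p = 0.000337) in Inject-Embed and 0.48 ± 0.12 (adjusted p = 0.00349) in Mix-Embed. USP18 in Inject-Embed against Mix-Embed was at 0.09 ± 0.12 (adjusted p = 0.669), and in Mix-Embed against 2D the call was lost without Huh7 2D replicate 1 (0.32, adjusted p = 0.15) or Huh7 Mix-Embed replicate 1 (0.41, adjusted p = 0.0682). TRIM25 was called at 0.21 ± 0.06 (adjusted p = 0.00799) in Inject-Embed against 2D, lost without Huh7 Inject-Embed replicate 1 (0.17, adjusted p = 0.119).

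All 3 ADP-ribosylation genes fell in Huh7 Inject-Embed, both against 2D and against Mix-Embed, where 16.7% and 13.4% of all genes fell. PARP9 had 19.1 and 19.5 CPM in Huh7 Inject-Embed, 26.3 and 28.1 CPM in Huh7 Mix-Embed and 33.1 and 28.5 CPM in Huh7 2D, and the Inject-Embed libraries were the lowest. PARP9 differed from 2D by -0.68 ± 0.11 (adjusted p = 4.61e-06) in Inject-Embed and -0.18 ± 0.1 (adjusted p = 0.244) in Mix-Embed. PARP9 in Inject-Embed against Mix-Embed was at -0.49 ± 0.11 (adjusted p = 0.000943). PARP14 had 33.1 and 36.9 CPM in Huh7 Inject-Embed, 52 and 44.4 CPM in Huh7 Mix-Embed and 53.9 and 54.5 CPM in Huh7 2D, and Inject-Embed was lowest. PARP14 differed from 2D by -0.63 ± 0.08 (adjusted p = 2.47e-08) in Inject-Embed and -0.16 ± 0.08 (adjusted p = 0.128) in Mix-Embed. PARP14 in Inject-Embed against Mix-Embed was at -0.47 ± 0.08 (adjusted p = 2.22e-05). DTX3L had 59.4 and 56 CPM in Huh7 Inject-Embed, 67 and 69 CPM in Huh7 Mix-Embed and 72.7 and 69 CPM in Huh7 2D, a smaller change. DTX3L differed from 2D by -0.29 ± 0.07 (adjusted p = 0.00189) in Inject-Embed and -0.06 ± 0.07 (adjusted p = 0.641) in Mix-Embed. DTX3L in Inject-Embed against Mix-Embed was at -0.23 ± 0.08 (adjusted p = 0.0195), and the call between the 3D cultures was lost without Huh7 Inject-Embed replicate 2 (-0.19, adjusted p = 0.186), Huh7 Mix-Embed replicate 1 (-0.26, adjusted p = 0.0584) or Huh7 Mix-Embed replicate 2 (-0.21, adjusted p = 0.147). HELZ2 followed the same pattern, with 34.1 and 34.1 CPM in Huh7 Inject-Embed, 48.9 and 49.7 CPM in Huh7 Mix-Embed and 53.2 and 55.7 CPM in Huh7 2D, again lowest in Inject-Embed. HELZ2 differed from 2D by -0.68 ± 0.08 (adjusted p = 2.35e-09) in Inject-Embed and -0.14 ± 0.07 (adjusted p = 0.172) in Mix-Embed. HELZ2 in Inject-Embed against Mix-Embed was at -0.53 ± 0.08 (adjusted p = 1.26e-06). EIF2AK2 had 40 and 35.3 CPM in Huh7 Inject-Embed, 38.1 and 39.8 CPM in Huh7 Mix-Embed and 48.9 and 45.6 CPM in Huh7 2D, with 2D highest. EIF2AK2 differed from 2D by -0.33 ± 0.08 (adjusted p = 0.000714) in Inject-Embed and -0.28 ± 0.07 (adjusted p = 0.00441) in Mix-Embed. EIF2AK2 in Inject-Embed against Mix-Embed was at -0.05 ± 0.08 (adjusted p = 0.76). The first EIF2AK2 call was lost without Huh7 Inject-Embed replicate 2 (-0.24, adjusted p = 0.0544), and the second without Huh7 2D replicate 1 (-0.23, adjusted p = 0.0745) or Huh7 Mix-Embed replicate 1 (-0.24, adjusted p = 0.0801).

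LGALS3BP, at 1.82 and 1.36 CPM in Huh7 Inject-Embed, 3.76 and 3.5 CPM in Huh7 Mix-Embed and 2.6 and 3.64 CPM in Huh7 2D, was lowest in Inject-Embed. LGALS3BP differed from 2D by -0.96 ± 0.24 (adjusted p = 0.0018) in Inject-Embed and 0.22 ± 0.19 (adjusted p = 0.506) in Mix-Embed. LGALS3BP in Inject-Embed against Mix-Embed was at -1.18 ± 0.24 (adjusted p = 0.000169), and the call against 2D was lost without Huh7 2D replicate 2 (-0.69, adjusted p = 0.108) or Huh7 Inject-Embed replicate 2 (-0.77, adjusted p = 0.059). IRF1 had 3.86 and 4.93 CPM in Huh7 Inject-Embed, 6.48 and 5.84 CPM in Huh7 Mix-Embed and 5.33 and 7.88 CPM in Huh7 2D. In Inject-Embed against 2D it was called at -0.59 ± 0.2 (adjusted p = 0.0215), and the call was lost without Huh7 2D replicate 2 (-0.28, adjusted p = 0.45) or Huh7 Inject-Embed replicate 1 (-0.42, adjusted p = 0.259). STAT2 had 41.2 and 42.8 CPM in Huh7 Inject-Embed, 51.6 and 50.7 CPM in Huh7 Mix-Embed and 49.1 and 43.4 CPM in Huh7 2D, and its one call, -0.29 ± 0.08 (adjusted p = 0.00602) for Inject-Embed against Mix-Embed, was lost without Huh7 Inject-Embed replicate 1 (-0.26, adjusted p = 0.0788) or Huh7 Mix-Embed replicate 1 (-0.27, adjusted p = 0.0545).

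The genes that rose in Huh7 were few. TRIM14 had 70.3 and 60.6 CPM in Huh7 Inject-Embed, 49.5 and 57.2 CPM in Huh7 Mix-Embed and 42.7 and 45.2 CPM in Huh7 2D, highest in Inject-Embed. TRIM14 differed from 2D by 0.58 ± 0.09 (adjusted p = 8e-07) in Inject-Embed and 0.28 ± 0.09 (adjusted p = 0.0178) in Mix-Embed. TRIM14 in Inject-Embed against Mix-Embed was at 0.3 ± 0.09 (adjusted p = 0.00799). The TRIM14 call in Mix-Embed against 2D was lost without Huh7 2D replicate 1 (0.23, adjusted p = 0.138) or Huh7 Mix-Embed replicate 2 (0.17, adjusted p = 0.362), and that between the 3D cultures without Huh7 Inject-Embed replicate 1 (0.19, adjusted p = 0.261) or Huh7 Mix-Embed replicate 1 (0.2, adjusted p = 0.24). ZNFX1, an RNA helicase of mitochondria and cytosol that senses viral RNA, had 50.4 and 46.5 CPM in Huh7 Inject-Embed, 35.7 and 33.5 CPM in Huh7 Mix-Embed and 37.6 and 42.4 CPM in Huh7 2D and was called at 0.48 ± 0.08 (adjusted p = 5.43e-06) in Inject-Embed against Mix-Embed. Against 2D its call in Inject-Embed, 0.28 ± 0.08 (adjusted p = 0.00378), was lost without Huh7 2D replicate 1 (0.2, adjusted p = 0.108) or Huh7 Inject-Embed replicate 1 (0.22, adjusted p = 0.0957). DDX27 and ZFAS1 overlap ZNFX1 on the other strand, with 17667 and 7351 counts over the 12 libraries, beside 18369 for ZNFX1. Reads in these overlaps cannot be told apart without the strand. MX2 had 36.6 and 30.2 CPM in Huh7 Inject-Embed, 39.7 and 34.7 CPM in Huh7 Mix-Embed and 25.7 and 30.7 CPM in Huh7 2D, called at 0.4 ± 0.1 (adjusted p = 0.00166) in Mix-Embed against 2D, a call lost without Huh7 2D replicate 1 (0.28, adjusted p = 0.0861) or Huh7 Mix-Embed replicate 1 (0.3, adjusted p = 0.0855). MX1 and DDX60, at most 3.5 CPM in any Huh7 library, were called in Mix-Embed against 2D at 0.98 ± 0.34 (adjusted p = 0.0322) and 1.32 ± 0.39 (adjusted p = 0.0102). The MX1 call was lost without Huh7 2D replicate 2 (0.75, adjusted p = 0.222) or Huh7 Mix-Embed replicate 2 (0.68, adjusted p = 0.338), and the DDX60 call without Huh7 2D replicate 2 (0.91, adjusted p = 0.159) or Huh7 Mix-Embed replicate 2 (0.97, adjusted p = 0.203). CXCL10, with 1.2 and 1.21 CPM in 2D, was called at -2.18 ± 0.78 (adjusted p = 0.0384) in Mix-Embed, lost without Huh7 2D replicate 1 (-2.18, adjusted p = 0.141), Huh7 2D replicate 2 (-2.17, adjusted p = 0.125) or Huh7 Mix-Embed replicate 1 (-1.35, adjusted p = 0.412). EPSTI1, with 1.82 and 1.36 CPM in Huh7 Inject-Embed, 0.696 and 0.467 CPM in Huh7 Mix-Embed and 0.666 and 0.337 CPM in Huh7 2D, was called at 1.65 ± 0.57 (adjusted p = 0.0241) in Inject-Embed against 2D, lost without Huh7 2D replicate 2 (1.25, adjusted p = 0.184) or Huh7 Inject-Embed replicate 1 (1.43, adjusted p = 0.163). IFI27 and IFI6 had no call in Huh7 Inject-Embed against 2D, at -1.03 ± 0.41 (adjusted p = 0.0526) and -0.52 ± 0.29 (adjusted p = 0.181), but were called lower when 1 library was left out. For IFI27 this was Huh7 2D replicate 1 (-1.3, adjusted p = 0.0266), and for IFI6 it was Huh7 Inject-Embed replicate 2 (-1.43, adjusted p = 0.00278). None of the 8 calls of Huh7 Mix-Embed against 2D held under every alternative run, and the count was 4 to 6 when 1 library was left out.

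The difference between the lines was tested in the same model, as the change in Huh7 minus the change in HLF. For Inject-Embed against 2D, 4 of 44 members had a difference above 0 and 17 below, shares of 9.09% and 38.6%, where 11.7% and 13.1% of all genes did. For Mix-Embed against 2D, 1 was above and 25 below, shares of 2.27% and 56.8%, where all genes gave 10.2% and 10.2%. The medians were -0.8 and -1.35, or -0.68 and -1.1 over the 34 and 35 genes with more than 3 counts in all 4 groups, and the medians of all genes were -0.04 and 0. With library totals in place of TMM, differences above 0 made up 37.1% of all calls over all genes for Mix-Embed, where TMM gave 49.9%, and 1 member was then above and 26 below.

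In 9 genes (20.5% of those tested) Inject-Embed moved the lines in opposite directions, lower than 2D in Huh7 and higher than 2D in HLF, with each change and their difference called. They were ISG15, UBE2L6, HERC5, EIF2AK2, PARP9, DTX3L, PARP14, IRF1 and LGALS3BP. Of all tested genes, 2.95% had such opposite calls. For HERC5 the difference was -2.4 ± 0.21 (adjusted p = 1.28e-12), for UBE2L6 -1.28 ± 0.1 (adjusted p = 2.92e-13) and for PARP9 -1.26 ± 0.16 (adjusted p = 1.86e-08). PARP14 and ISG15 followed with -1.21 ± 0.11 (adjusted p = 1.94e-12) and -1 ± 0.18 (adjusted p = 2.21e-05). The ISG15, EIF2AK2, IRF1 and LGALS3BP changes within a line each lost their call without some library, with the values given above for each line. TRIM25 went the other way, higher in Huh7 Inject-Embed and lower in HLF Inject-Embed, each against 2D (0.4 ± 0.08, adjusted p = 0.000179), 1 of 44 members (2.27%) where 2.49% of all genes did so. In Mix-Embed, HERC5 and EIF2AK2 fell in Huh7 and rose in HLF, with differences of -2.47 ± 0.19 (adjusted p = 9.29e-14) and -0.99 ± 0.09 (adjusted p = 2.59e-11), and 4.55% of members and 1.8% of all genes had these calls. EPSTI1 was the single member higher in both lines in Inject-Embed (2.27%, beside 1.09% of all genes). In Mix-Embed, USP18, MX1, DDX60 and TRIM14 were higher in both (9.09%, beside 2.65% of all genes). The Huh7 calls of these genes and of EPSTI1, and those of HERC5 and EIF2AK2 in Mix-Embed, were each lost without some library, as given above. For IRF1 the call of the difference was lost without Huh7 2D replicate 2 (-0.67, adjusted p = 0.0682). The difference of IFI44L rests on few Huh7 counts. IFI44L was at -4.36 ± 1 (adjusted p = 0.000761) for Inject-Embed and -5.01 ± 0.91 (adjusted p = 3.89e-05) for Mix-Embed. These calls were lost without Huh7 2D replicate 2 (-2.31, adjusted p = 0.502) in Inject-Embed and without Huh7 2D replicate 2 (-2.97, adjusted p = 0.388) in Mix-Embed. Between the 3D cultures, 8 members were lower in Inject-Embed than in Mix-Embed in both lines, namely UBE2L6, HERC5, HELZ2, PARP9, DTX3L, PARP14, STAT2 and LGALS3BP (18.2%, beside 1.56% of all genes). ZNFX1 and TRIM14 were higher in Huh7 and lower in HLF (4.55%, beside 0.367% of all genes).

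**Figure D4:**
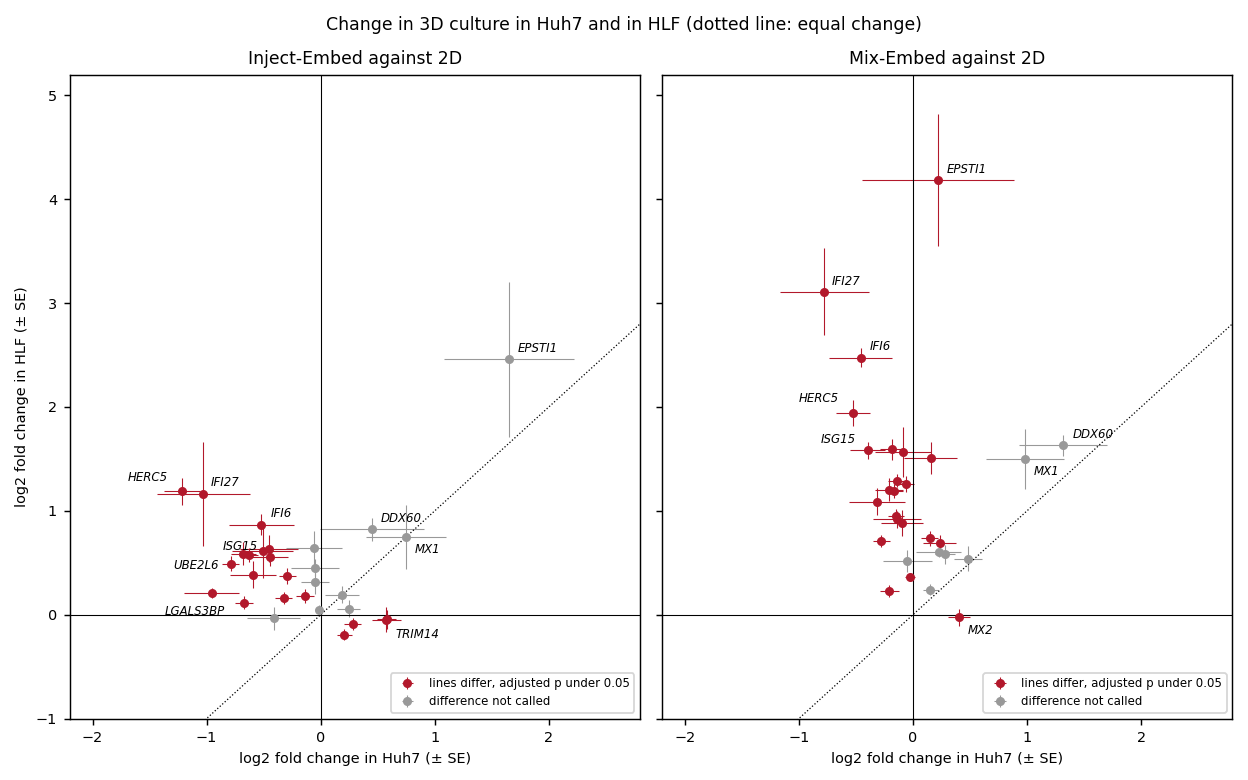
Log2 fold change against 2D in Huh7 (horizontal) and in HLF (vertical), each ± SE, for Inject-Embed (left) and Mix-Embed (right), for the 29 tested genes with a mean of at least 1 CPM in a group of each line. Red marks genes whose difference between the lines was called and the dotted line marks equal change, and most points lie above it, with HERC5 at -1.22 in Huh7 and 1.19 in HLF in the left panel.

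The rest of the pathway was read from 52 further genes, 43 of them tested. In HLF Mix-Embed against 2D, 27 were higher and 1 lower, shares of 62.8% and 2.33%, where all genes gave 14.4% and 14.6%. In HLF Inject-Embed against 2D, 18 were higher and 1 lower, shares of 41.9% and 2.33%, where all genes gave 9.09% and 8.86%. In Huh7 Inject-Embed against 2D, 4 were higher and 7 lower, shares of 9.3% and 16.3%, where all genes gave 13.2% and 16.7%. In Huh7 Mix-Embed against 2D, 4 were higher and 6 lower, shares of 9.3% and 14%, where all genes gave 11.2% and 10.6%. The shares in Huh7 were thus near those of all genes. Among the interferons themselves, IFNB1, IFNA2, IFNG and IFNL2 had 0 counts in every library. IFNE had 22 counts in HLF Inject-Embed, 17 in HLF Mix-Embed and 21 in HLF 2D, and none in Huh7. IFNL1, a type III interferon, had 0 counts in HLF Inject-Embed, 9 in HLF Mix-Embed and 1 in HLF 2D, too few to test.

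Of the receptors, IFNLR1, which type III interferons need, had 17.3 and 15.4 CPM in Huh7 Inject-Embed, 16.4 and 17 CPM in Huh7 Mix-Embed and 15.7 and 17.2 CPM in Huh7 2D and 0 counts in every HLF library. IFNAR1, a chain of the type I receptor, had 105 and 103 CPM in HLF Inject-Embed, 115 and 107 CPM in HLF Mix-Embed and 89.8 and 95.1 CPM in HLF 2D and was called at 0.27 ± 0.07 (adjusted p = 0.00119) in Mix-Embed against 2D. JAK1 rose against 2D in both Huh7 3D cultures, by 0.49 ± 0.06 (adjusted p = 6.12e-09) in Inject-Embed and 0.22 ± 0.06 (adjusted p = 0.00418) in Mix-Embed. In HLF it was called lower, at -0.43 ± 0.05 (adjusted p = 5.04e-09) in Inject-Embed and -0.56 ± 0.05 (adjusted p = 1.75e-12) in Mix-Embed. The RNA sensors RIGI and IFIH1 rose in HLF Mix-Embed by 1.25 ± 0.12 (adjusted p = 1.25e-11) and 1.43 ± 0.13 (adjusted p = 4.12e-12). SOCS3, an inhibitor of JAK signalling, had 1.59 and 2.04 CPM in Huh7 Inject-Embed, 4.94 and 4.59 CPM in Huh7 Mix-Embed and 12.3 and 15.8 CPM in Huh7 2D, with no overlap. It fell in Huh7 against 2D, at -2.95 ± 0.19 (adjusted p = 1.25e-16) in Inject-Embed and -1.55 ± 0.15 (adjusted p = 6.75e-11) in Mix-Embed, and rose in HLF Mix-Embed against 2D (0.44 ± 0.08, adjusted p = 2.61e-05). All 11 OAS, IFIT and IFITM genes rose in HLF Mix-Embed against 2D and 10 in Inject-Embed against 2D (100% and 90.9%, beside 14.4% and 9.09% of all genes). In Huh7 Inject-Embed against 2D 1 of these rose and 3 fell (9.09% and 27.3%, beside 13.2% and 16.7% of all genes). Of 6 antigen presentation genes, 5 rose in HLF Mix-Embed and 4 in HLF Inject-Embed, each against 2D (83.3% and 66.7%, beside 14.4% and 9.09%). In Huh7 against 2D, 1 of the 6 rose in Inject-Embed and 1 fell in Mix-Embed (16.7% each, beside 13.2% and 10.6%).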

How the data were processed

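Poly-A RNA of 12 libraries was sequenced in paired reads of 150 bases on an Illumina NovaSeq instrument, per the labels' protocols. FastQC, Trimmomatic, STAR 2.7.9a, featureCounts and the GRCh38 build are named in the submitters' processing notes. No source used here gives the strand setting, the annotation release or the treatment of reads that map to several places. The overlaps of genes named above are not the only ones. On opposite strands, TRIM14 overlaps NANS (8042 and 6567 counts over the 12 libraries), EIF2AK2 overlaps GPATCH11 (18699 and 3039) and CXCL10 overlaps ART3 (78 and 149). IRF9 overlaps AL136295.5 on the same strand (741 and 250). The authors deposited raw counts per gene and FPKM for the same genes, and the deposited FPKM equalled the count divided by gene length and library total to within a relative 1.5e-08 over 167453 values of at least 20 counts. Every sample column was assigned to a group by its name.

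Counts were tested with edgeR 4.0.16 in R 4.3.3, using TMM scaling, the filterByExpr minimum count of 10 and quasi-likelihood tests over 6 groups, with Benjamini-Hochberg adjustment at 0.05 over 19342 genes. There were 6 residual degrees of freedom. The common dispersion of 0.00211, a single value over all genes, stands for 4.6% variation between replicates beyond counting error, and single genes can vary more. Each SE was taken from the log2 fold change and its F statistic. In each of 9 comparisons, values and tests were given for up to 12 called genes with at least 3 CPM in the higher group, ordered by absolute change, and for others of the same role. A lack of overlap between groups in genes chosen by their change is no separate support. A ratio against a group at 0 was computed against 3 counts over the group, without the counting error of the other group. With 1 to 3 counts it is given with a 95% counting interval, which covers counting error only. Nothing in the labels says that replicates came from separate cultures, so p-values measure the spread between these libraries. DESeq2 1.42.0, limma 3.58.1 on log2(FPKM + 1) and log2(FPKM + 0.1), other scalings, no filter, a replicate block and fits without 1 library were the alternatives. The test script was tested on simulated data. The listed genes, the further pathway genes, the markers and the roles were chosen with earlier results of these data known.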

Additional observations from a re-analysis of the deposited data

Results flagged for a closer look

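The change with culture differed between the lines, by the test of Huh7 minus HLF in edgeR's quasi-likelihood model, for 21 listed genes in Inject-Embed against 2D and for 26 in Mix-Embed against 2D. In Inject-Embed 4 were above 0 and 17 below, shares of 9.09% and 38.6%, where 11.7% and 13.1% of all tested genes were. In Mix-Embed 1 was above and 25 below, shares of 2.27% and 56.8%, beside 10.2% and 10.2% of all tested genes. In Inject-Embed, 10 genes also moved in opposite directions, with a call in each line. Their differences in log2 fold change were -2.40 for HERC5, -1.28 for UBE2L6, -1.26 for PARP9, -1.21 for PARP14, -1.16 for LGALS3BP, -1.004 for ISG15, -0.98 for IRF1, -0.67 for DTX3L, -0.49 for EIF2AK2 and 0.40 for TRIM25. In Mix-Embed, HERC5 at -2.47 and EIF2AK2 at -0.99 did so (4.55% of members, beside 1.8% of all tested genes). In Inject-Embed, 9 of the 10 were lower in Huh7 and higher in HLF (20.5%, beside 2.95% of all tested genes). TRIM25 alone went the other way (2.27%, beside 2.49%). As given above, changes within a line of ISG15, EIF2AK2, IRF1, LGALS3BP and TRIM25 lost their call without some library. So did the Huh7 changes of HERC5 and EIF2AK2 in Mix-Embed. Groups of 2 libraries allow no search for a library that stands apart from its group.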

How the results depend on the processing

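The 223 calls of members over the 9 comparisons were followed through the alternatives, and none changed direction. Over calls and settings, 2761 results kept the call and 222 lost it. Members without a call gained one in 95 results, 26 of them with limma on log2(FPKM + 1) and 16 with limma on log2(FPKM + 0.1). With limma on log2(FPKM + 1), 37 members differed between the lines in Mix-Embed against 2D, in place of 26. For Huh7 Mix-Embed against 2D, 8 members were called, against 5 with limma on log2(FPKM + 1), 4 with limma on log2(FPKM + 0.1), 5 with DESeq2 and 4 to 6 without 1 library. For HLF Inject-Embed against 2D, 28 were called, against 15 with limma on log2(FPKM + 0.1). The cause was not tested. Of the called genes, 38 of 41 in HLF Mix-Embed against 2D, 11 of 28 in HLF Inject-Embed against 2D and 23 of 36 in HLF Inject-Embed against Mix-Embed held under every alternative run. In Huh7, 8 of 15 in Inject-Embed against 2D, 0 of 8 in Mix-Embed against 2D and 6 of 10 in Inject-Embed against Mix-Embed did. For Huh7 2D against HLF 2D this was 33 of 38, and for the differences between lines 13 of 21 in Inject-Embed and 19 of 26 in Mix-Embed. Correlations of same-numbered deviations over all tested genes ran from -0.019 to 0.021. They gave no sign that replicate numbers pair the libraries. Counting error lowers such correlations, so they cannot exclude a pairing. A replicate block gave 41 calls in HLF Mix-Embed against 2D, 26 in HLF Inject-Embed against 2D and 36 in HLF Inject-Embed against Mix-Embed. In Huh7 it gave 15 in Inject-Embed against 2D, 8 in Mix-Embed against 2D and 10 in Inject-Embed against Mix-Embed. Between the lines in 2D the block gave 36 calls. For the differences between lines it gave 22 in Inject-Embed and 26 in Mix-Embed. Requiring 1 more A in the promoter motif left it in 60.5% of the matched genes and 4.38% of all genes, and a window ending at the start site left it in 52.6% and 8.41%. Depth limits the genes near 3 counts, 0.178 to 0.255 CPM in a library.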
